A study of Mus musculus with 16 samples.

Results

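The genes described here are 10 genes of integrins and adhesion molecules: Itgal, Itgb1, Itgb2, Itga4, Itgb7, Itga1, Itga6, Itgae, Cd44 and Selplg. They were chosen by gene symbol, and all 10 were found among the 56748 genes of the count and TPM tables. RNA-Seq was performed on splenic memory CD4+ T cells, gated by FACS as CD4+ and CD25low/- with CD44high among the markers, from male mice aged 6 to 12 weeks on a mixed background that includes C57BL/6. There were 4 samples in each of 4 groups, 2 of them KO (for HP1α or for HP1γ) and 2 made up of WT littermates. In the HP1α line, the floxed gene (Cbx5) had been excised in all tissues by a CMV-cre transgene before heterozygous mice were intercrossed. In the HP1γ line, both genotypes were homozygous for the floxed gene (Cbx3) and the KO mice also carried Cd4-cre, so Cre and the loss of HP1γ in T cells cannot be told apart, and the WT cells of this line keep the floxed allele. The labels do not state that the replicates were separate animals, and the p-values then measure the spread between these samples, which may be technical.

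HP1α and HP1γ are heterochromatin proteins that bind methylated histone H3 and take part in gene silencing. Integrins are cell surface receptors made of one α and one β chain, and a T cell uses them to arrest on vessel walls, to enter tissues and to adhere to antigen-presenting cells. Selectin ligands such as PSGL-1 first let the cell roll along the vessel wall, and CD44 binds hyaluronan in the tissue matrix. Memory CD4+ T cells carry more CD44 and LFA-1 on their surface than naive cells do, and CD44 was one of the markers used to sort these cells, so its presence is no finding.

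Estimated counts summed to between 26694045 and 40199637 per sample, and every member was well covered, from at least 290 counts for Itgae and 344 for Itga1 to at least 32753 for Itgal. T cell identity markers summed to between 4788 and 6083 CPM (counts scaled to library size after TMM normalization) in each sample and Cd8a and Cd8b1 to no more than 18.4. Cbx5 was lower in HP1α KO than in WT samples by the values (23.0 to 29.2 against 33.9 to 54.6 CPM), with a log2 fold change of -0.58 ± 0.145 (SE) that missed the threshold (edgeR quasi-likelihood test, adjusted p = 0.946). Cbx3 was lower in HP1γ KO (45.4 to 49.3 CPM) than in WT samples (73.4 to 91.9 CPM), with a log2 fold change of -0.82 ± 0.079 (SE; adjusted p = 0.0015, edgeR). The counts run over whole genes, so reads from parts of a gene that Cre leaves in place are counted too.

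The 10 members were first ordered by transcript level, for which TPM was used because it takes gene length into account. Itgb7, the β chain of the gut-homing integrin α4β7, had the highest level, with a mean of 631 ± 70.9 TPM (SD, n = 16). It was above the next member in 16 of 16 samples. Itgb2, the β chain of LFA-1, followed with 502 ± 44.7 TPM, and Itgal, the α chain of LFA-1, with 457 ± 38.4 TPM. Itgb1, the β chain shared by the VLA integrins, was at 430 ± 59.6 TPM and exceeded Selplg (PSGL-1, the ligand of P-selectin), at 345 ± 41.1 TPM, in 14 of 16 samples. Itgal was above Itgb1 in only 8 of 16 samples, and the ranges of neighbours overlapped throughout these 5 genes.

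A gap then separated Selplg from Itga4, the α chain of VLA-4 and of α4β7 (167 ± 29.6 TPM), and from Cd44 (165 ± 21.0 TPM). The lowest Selplg value, 283.8 TPM, was above the highest Itga4 value, 225.3 TPM. Itga4 and Cd44 overlapped, with Itga4 the higher in 9 of 16 samples. Itga4 was above Cd44 in all 4 HP1α WT samples and Cd44 above Itga4 in all 4 HP1γ WT samples. Itga6, the α chain of a laminin receptor, had a mean of 43.3 ± 5.72 TPM. Itgae, the CD103 chain that pairs with β7 and binds E-cadherin, was at 6.84 ± 2.07 TPM. Itga1, the α chain of a collagen receptor, was at 2.24 ± 0.332 TPM. The ranges of Cd44, Itga6, Itgae and Itga1 did not overlap with one another. When levels were ordered by CPM, which does not correct for length, Itgal took rank 1, Itga4 rank 2 and Itgb7 rank 4.

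**Figure D1:**
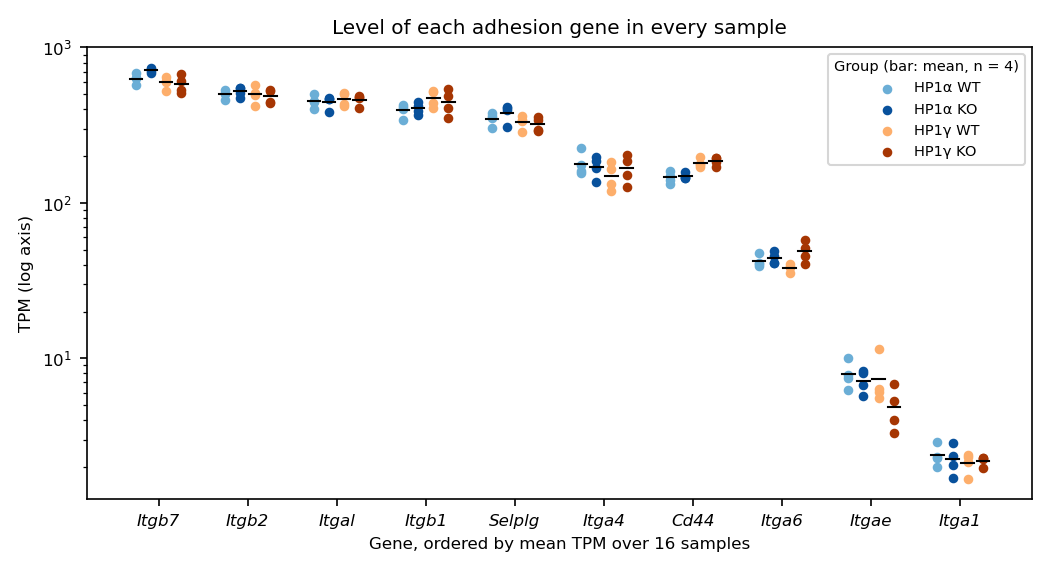
Levels of the 10 members as TPM on a log axis, in the order of their mean over 16 samples. Each point is a sample, coloured by group, and each bar is the mean of 4 samples; Itgb7 is highest (508.9 to 742.5 TPM) and Itga1 lowest (1.69 to 2.91 TPM), with gaps below Selplg, Cd44, Itga6 and Itgae.

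Beyond the members, 18 other integrin subunits were listed as a comparison, of which 14 were expressed enough to be tested between HP1α KO and WT. Those with a mean of at least 5 TPM were Itgav, an α chain that binds RGD-containing matrix proteins, at 33.8 ± 7.59 TPM, its β partner Itgb3 at 22.9 ± 3.25 TPM, and Itga7, a laminin receptor chain, at 16.04 ± 3.02 TPM. These lay between Itga6 and Itgae in level.

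Loss of HP1α was not accompanied by a called change in any of the 10 members (adjusted p from 0.946 to 0.996, edgeR), and 0% of the 14881 genes tested were called in this comparison. At an unadjusted p under 0.05, 635 genes (4.27%) passed, and DESeq2 called 3 genes higher and 5 lower, none of them a member. The members' log2 fold changes ranged from -0.14 to 0.18, with 5 above and 5 below 0 and a median of -0.0023 (median over all genes, 0.0026).

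Itgb7 was the member that differed most between the groups. Memory cells without HP1α held 980.9, 983.4, 994.2 and 943.1 CPM of it, against 917.6, 781.5, 884.1 and 864.9 CPM for their WT littermates. Every KO sample was above every WT sample, which held for 1 of 10 members and for 3.11% of all genes tested. The log2 fold change was 0.18 ± 0.058 (SE), or 1.13-fold with a 95% confidence interval from 1.03 to 1.24, and the unadjusted p of 0.0118 gave an adjusted p of 0.946 (edgeR). The exact two-sided permutation test gave p = 0.0286, which is the smallest that 4 against 4 samples allow. The summed markers of T cell identity (5769 to 6083 CPM in KO and 5507 to 5786 CPM in WT samples), B cells, CD8 T cells, NK cells, regulatory T cells, myeloid cells, platelets and erythroid cells overlapped between the groups. The naive T cell markers did not: Ccr7, Lef1, Tcf7 and Satb1 together were higher in every KO sample (2063 to 2227 CPM) than in every WT sample (1886 to 2056 CPM), as was Itgb7. Of single markers, 2 of 8 for T cell identity and 1 of 7 for B cells had an unadjusted p under 0.05 (edgeR). So did 1 of 2 for CD8, 1 of 5 for regulatory T cells and Lef1, against 4.27% of all genes. Of NK markers 0 of 3 passed, of myeloid 0 of 9, of platelet 0 of 2 and of erythroid 0 of 5. The part of these markers in the Itgb7 difference was not tested.

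The LFA-1 chains were close in HP1α KO and WT samples. Itgal ranged from 1244 to 1455 CPM in KO and from 1308 to 1524 CPM in WT samples, with a log2 fold change of -0.01 (95% interval from -0.16 to 0.13). Itgb2 ranged from 819.7 to 911.2 and from 799.8 to 878.7 CPM, with a log2 fold change of 0.06 (-0.06 to 0.17). The groups overlapped for both. Of the β1 and α4 chains, Itgb1 gave a log2 fold change of 0.01 (-0.17 to 0.18) and Itga4 of -0.07 (-0.36 to 0.21). For the rarer α chains, the log2 fold changes were 0.02 for Itga6 (-0.15 to 0.20), -0.11 for Itga1 (-0.40 to 0.18) and -0.14 for Itgae (-0.52 to 0.25). Cd44 gave -0.03 (-0.17 to 0.11) and Selplg 0.12 (-0.07 to 0.31). The WT and KO samples overlapped for each of these genes, and the intervals leave out changes beyond 1.5-fold for all 10.

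Loss of HP1γ was not accompanied by a called change in the members either (0 of 10, adjusted p from 0.394 to 0.846, edgeR), where 0.327% of 14975 genes were called, 38 higher and 11 lower. Without HP1γ KO replicate 1 or 2, the 49 genes became 30 or 32. At an unadjusted p under 0.05, 1 of 10 members and 11.9% of all genes passed. The log2 fold changes ran from -0.68 to 0.22, 7 of 10 were below 0, and their median was -0.09 against 0.00 over all genes. No member separated KO from WT samples, and 7.59% of all genes did.

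Itgae had the largest difference by size. Its level was 15.7, 12.0, 9.37 and 7.58 CPM without HP1γ, against 16.2, 28.9, 12.7 and 14.5 CPM for WT littermates. The groups overlapped, since the highest KO sample exceeded a pair of WT samples, and WT replicate 2 stood well above the rest. The log2 fold change was -0.68 ± 0.284 (SE; unadjusted p = 0.0376, adjusted p = 0.394, edgeR), with a 95% confidence interval from 0.404-fold to 0.968-fold. Without WT replicate 2, it was -0.36 (adjusted p = 0.625). Regulatory T cells can carry CD103, and the summed regulatory T cell markers (Foxp3, Il2ra, Ikzf2, Tnfrsf18 and Ctla4) overlapped between KO (617.1 to 962.0 CPM) and WT (583.3 to 890.3 CPM) samples. CD8 markers summed to between 7.51 and 18.4 CPM in KO and between 5.72 and 10.4 CPM in WT samples. Neutrophil markers reached 27.2 CPM in KO and 8.94 CPM in WT samples. WT replicate 2 had the highest WT sum of both. T cell identity markers overlapped (4788 to 5532 CPM in KO and 5335 to 5727 CPM in WT samples), and 4 of 8 had an unadjusted p under 0.05 (edgeR), against 11.9% of all genes. Erythroid markers reached 1197 CPM in KO and 531.4 CPM in WT samples. B cell markers were higher in every KO (60.5 to 65.0 CPM) than in every WT sample (43.9 to 53.4 CPM). The part of these markers in the result was not tested.

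Itga6 had the smallest p among members with a positive difference. It was at 110.6, 99.1, 86.5 and 80.1 CPM in HP1γ KO and 90.3, 86.5, 77.0 and 74.5 CPM in WT samples, and the log2 fold change of 0.22 ± 0.109 (SE) had an adjusted p of 0.464 (edgeR). Its group ranges overlapped, though each KO sample was above the WT sample of the same number. Itgb1 was spread widely over the KO samples, at 846.9, 732.3, 1121 and 1015 CPM, against 959.0, 1011, 1081 and 1128 CPM in WT samples. Its log2 fold change was -0.15 (95% interval from -0.41 to 0.11). Itga4, at 831.7, 692.4, 1164 and 1037 CPM in KO samples, was low and high in the same KO samples as Itgb1. In WT samples Itga4 was at 831.2, 717.6, 1029 and 957.3 CPM, the same order by replicate number as in KO samples. Itga4 gave a log2 fold change of 0.10 (-0.26 to 0.45). The LFA-1 chains gave -0.08 for Itgal (-0.24 to 0.07) and -0.09 for Itgb2 (-0.29 to 0.11), and Itgb7 gave -0.10 (-0.31 to 0.12). Selplg gave -0.11 (-0.29 to 0.07), Cd44 -0.04 (-0.18 to 0.09) and Itga1 0.08 (-0.18 to 0.35). Over both knockouts, 19 of 20 intervals lay within 1.5-fold in either direction, the exception being Itgae in the HP1γ line.

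**Figure D2:**
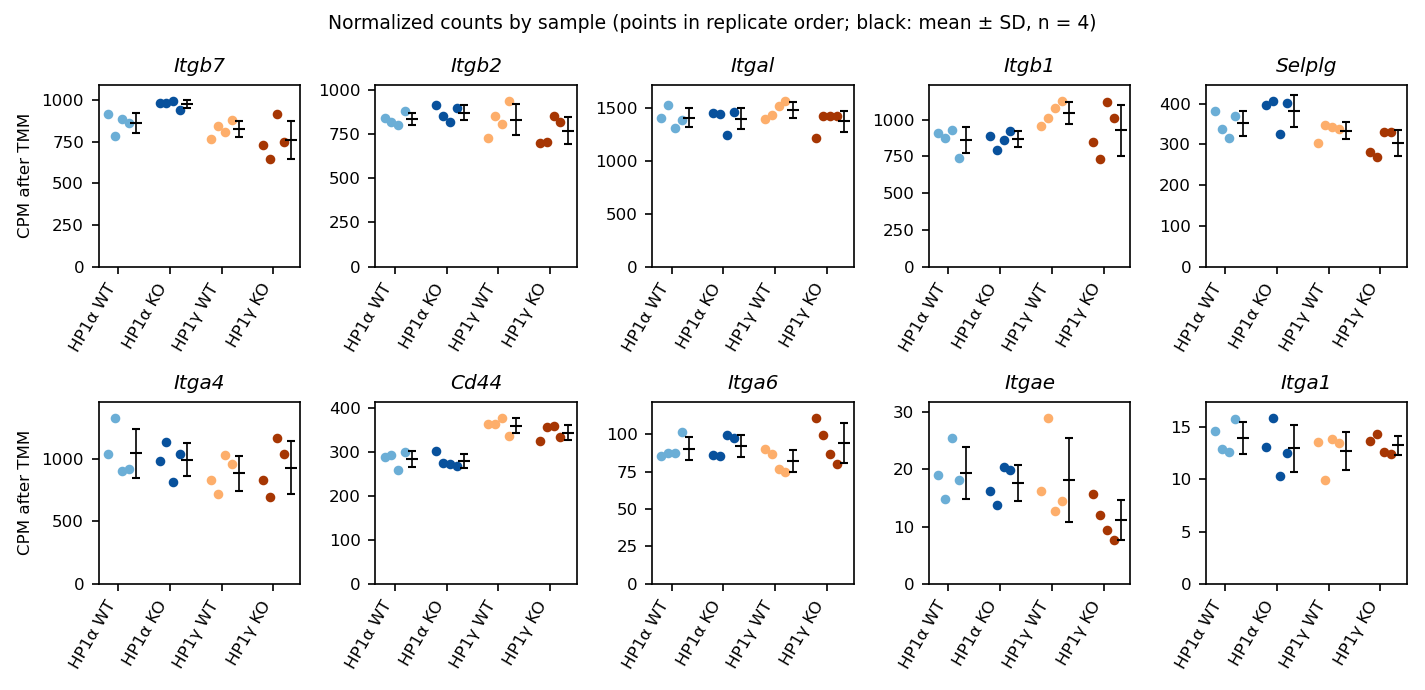
CPM after TMM normalization for each member in every sample, by group, on linear axes from 0. Points are samples in replicate order and the black marks are the mean and SD of 4 samples; Cd44 is higher in all 8 samples of the HP1γ line (325.5 to 376.9 CPM) than in all 8 of the HP1α line (258.1 to 303.0 CPM), and Itgae in HP1γ WT holds 1 sample at 28.9 CPM.

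Whether the 2 knockouts differed in effect was tested as an interaction over 16 samples, coded as the HP1α effect minus the HP1γ effect. No member was called, where 0.0507% of 15776 genes were, and 9.58% of genes had an unadjusted p under 0.05. Itgb7 was the 1 member among these, with a log2 difference of 0.28 ± 0.120 (SE) that missed the threshold (unadjusted p = 0.0324 and adjusted p = 0.476, edgeR). Selplg followed with 0.24 (adjusted p = 0.545), and Itgae had the largest difference by size, 0.55, with a 95% interval from -0.22 to 1.32. No difference between the knockouts was therefore established for a member at this number of samples. Of T cell identity markers, 4 of 8 had an unadjusted p under 0.05 in the interaction (edgeR), against 9.58% of all genes. Their median log2 difference was 0.15, against 0.004 over all genes. Satb1 and 1 of 6 erythroid markers passed too, but 0 of 8 B cell, 0 of 2 CD8 and 0 of 5 regulatory T cell markers did. The part of these markers in the members' differences was not tested.

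The WT groups were then compared between lines, which differ in the targeted gene and its allele, so line, floxed allele and handling cannot be told apart. The HP1γ WT samples are also the controls of the HP1γ knockout. Here 1 of 10 members was called, Cd44, while 12.8% of 14804 genes were called, 674 higher and 1222 lower in the HP1α line. This share moved when a sample was left out. The 1896 genes became 573, 1101 or 1040 without HP1α WT replicate 1, 2 or 4 and 613 or 626 without HP1γ WT replicate 1 or 2. They became 1720 without HP1α WT replicate 3 and 1782 or 2185 without HP1γ WT replicate 3 or 4. Whether the smaller group or the sample left out made the fall was not tested. Both Cd44 and Itgb1 had an unadjusted p under 0.05, as did 29.9% of all genes. The samples of these 2 of 10 members did not overlap, against 19.6% of all genes. The members' median log2 difference was 0.06, against 0.02 over all genes.

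Cd44, the hyaluronan receptor, was at 288.6, 293.9, 258.1 and 299.1 CPM in WT samples of the HP1α line and at 363.8, 364.1, 376.9 and 335.7 CPM in those of the HP1γ line. The log2 difference was -0.35 ± 0.066 (SE), or 0.785-fold with a 95% confidence interval from 0.709 to 0.868 (adjusted p = 0.0104, edgeR). On the TPM scale the same samples were at 149.0, 140.8, 132.3 and 160.6 against 168.9, 177.4, 198.2 and 174.8. The HP1α KO samples were at 303.0, 276.2, 272.9 and 267.3 CPM and overlapped with their own WT littermates, as did the HP1γ KO samples, at 325.5, 357.4, 359.2 and 335.0 CPM. Thus, all 8 samples of the HP1α line were below all 8 of the HP1γ line. Between the knockout groups, a comparison added after the values were seen, the Cd44 log2 difference was -0.32 (adjusted p = 0.00416, edgeR). The gate rested on CD44 staining, and the part of the sort in this difference was not tested. The summed markers of T cell identity, B cells, CD8 T cells, NK cells, regulatory T cells, myeloid cells, platelets, erythroid cells and, by the 4 genes named above, naive T cells overlapped between the WT groups. Of single markers, Eomes of the NK list was called lower in HP1α WT samples, where 12.8% of all genes were called. At an unadjusted p under 0.05 (edgeR), 1 of 2 CD8, 2 of 5 regulatory T cell and 1 of 9 myeloid markers passed, against 29.9% of all genes. Ccr7 of the naive T cell markers passed too. The part of these markers in the Cd44 difference was not tested.

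Itgb1 was at 908.2, 877.4, 931.3 and 737.5 CPM in HP1α-line WT samples and at 959.0, 1011, 1081 and 1128 CPM in HP1γ-line WT samples, without overlap. The log2 difference was -0.29 ± 0.087 (SE; 95% interval from 0.718-fold to 0.937-fold), and the adjusted p of 0.0551 just missed the threshold in edgeR. It was called under 3 of 8 alternatives, DESeq2 among them (adjusted p = 0.0112), and in 0 of 8 fits that left out a sample (adjusted p from 0.0502 to 0.112). Itga4 went the other way by value, with a log2 difference of 0.23 (-0.07 to 0.53, adjusted p = 0.293), and its groups overlapped. The other members had adjusted p-values above 0.35, with Itga6 at 0.13, Itga1 at 0.13, Itgae at 0.08, Selplg at 0.07, Itgb7 at 0.05, Itgb2 at -0.0049 and Itgal at -0.08 on the log2 scale. Between the knockout groups, 4 of 10 members were called, Itgb7, Selplg and Itgae higher and Cd44 lower in HP1α KO, where 32.8% of 15020 genes were called. Without HP1γ KO replicate 2, none of the 3 that were higher remained called. In the knockout groups, the sums of T cell identity markers also did not overlap (5769 to 6083 against 4788 to 5532 CPM), nor did those of the 4 naive T cell markers (2063 to 2227 against 1824 to 1958 CPM). All 5 tested erythroid genes were called lower in HP1α KO, with a median log2 difference of -2.85, and the part of these markers in the members' differences was not tested.

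**Figure D3:**
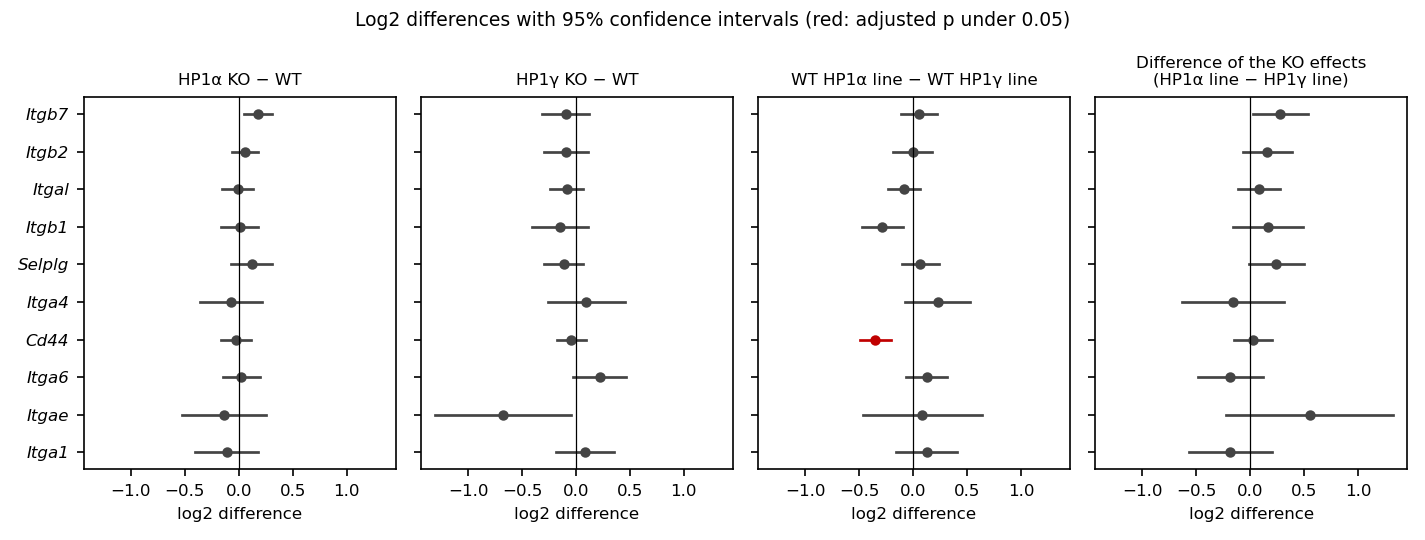
Log2 differences of each member with 95% confidence intervals from the edgeR fits, for the HP1α knockout, the HP1γ knockout, the WT groups of the lines and the difference of the knockout effects. Red marks an adjusted p under 0.05, which only Cd44 between the WT groups reaches, and the widest interval is that of Itgae.

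Integrin chains act in pairs, and the ratios of their TPM values were described in each sample, with no test. The LFA-1 ratio, Itgal to Itgb2, varied little, with a mean of 0.912 and a range from 0.815 to 1.09 over 16 samples. Itga4 to Itgb1, the chains of VLA-4, had a mean of 0.392. In the HP1γ line this ratio was between 0.359 and 0.380 in KO and between 0.269 and 0.348 in WT samples, without overlap. It was also higher in HP1α WT (0.374 to 0.565) than in HP1γ WT samples. The ratio of Itgb7 to Itgb1, 2 β chains that compete for the α4 chain, lay between 1.44 and 1.84 in HP1α WT and between 1.16 and 1.36 in HP1γ WT samples. It lay between 1.55 and 2.01 in HP1α KO and between 1.24 and 1.45 in HP1γ KO samples. Of the 7 ratios, 0 separated HP1α KO from WT, 1 separated HP1γ KO from WT and 2 separated the WT groups. By CPM, 3.11%, 7.59% and 19.6% of single genes did. These shares are not a background for ratios of TPM, and several of the 7 ratios share a chain. Itgae made up only a small share relative to its partner, with a ratio to Itgb7 from 0.00551 to 0.0192. Itga6 to Itgb1 averaged 0.103 and Itga1 to Itgb1 0.0053.

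**Figure D4:**
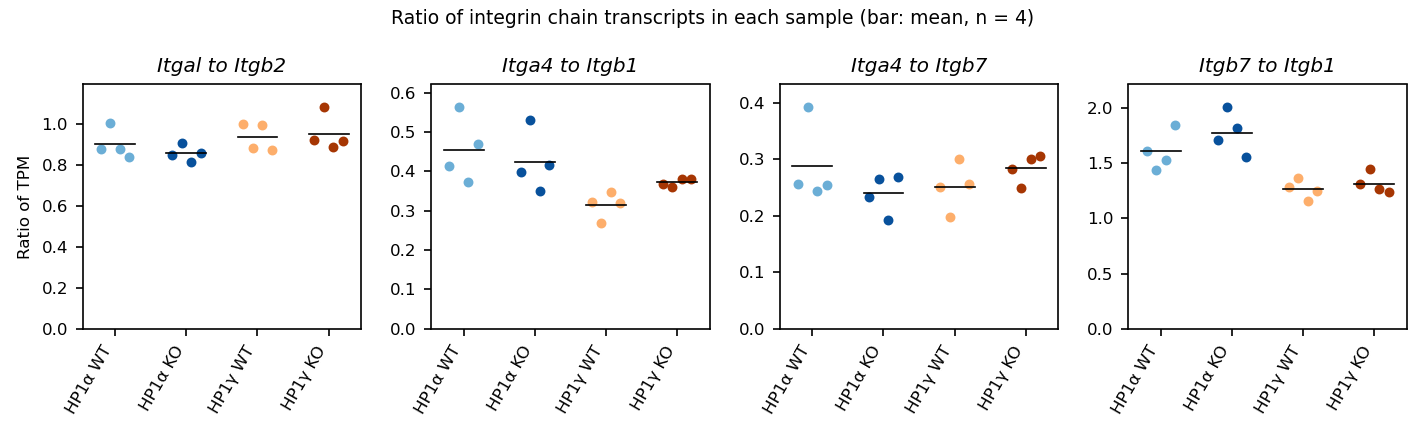
Ratios of TPM values for 4 pairs of integrin chains in each sample, by group, on linear axes from 0. Points are samples in replicate order and bars are means of 4. Itga4 to Itgb1 is higher in every HP1γ KO sample (0.359 to 0.380) than in every HP1γ WT sample (0.269 to 0.348). Itgb7 to Itgb1 is higher in every HP1α WT than in every HP1γ WT sample, and in every HP1α KO than in every HP1γ KO sample.

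Itgb7 lies on chromosome 15, the chromosome of the targeted gene of the HP1α line. In GRCm39 it spans chr15:102124429-102140379 on the minus strand, and Cbx5 spans chr15:103099505-103148419, so their lowest bases are 0.975 Mb apart. Of 41 tested genes within 2 Mb of Cbx5, 0 were called in HP1α KO against WT and 3 had an unadjusted p under 0.05 (4.27% of all genes did), and these were Itgb7, Rpl39-ps and Prr13, all higher in KO by value. Itgb7 had the smallest p of the 41. In this window, 29 of 41 log2 fold changes were above 0, with a median of 0.05 against 0.00 over all genes. In the HP1γ knockout, 19 of 40 were above 0 and Itgb7 ranked 17th by p. Sequence linked to a targeted allele can come from the strain it was made in, and linkage and the loss of HP1α cannot be told apart here. Between the WT groups, 4 of 40 genes in the window were called, Krt83, Myg1, Tarbp2 and Map3k12, where 12.8% of all genes were, and Itgb7 was not. Itga5, the fibronectin receptor chain, also lies in this window and was not called in either knockout. In the HP1γ knockout its log2 fold change was 0.52 (unadjusted p = 0.0289, edgeR). Atp5g2, Itga5 and Pde1b were the 3 of 40 window genes with an unadjusted p under 0.05 there, against 11.9% of all genes. Itga5 was called between the knockout groups, where 32.8% of all genes were.

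**Figure D5:**
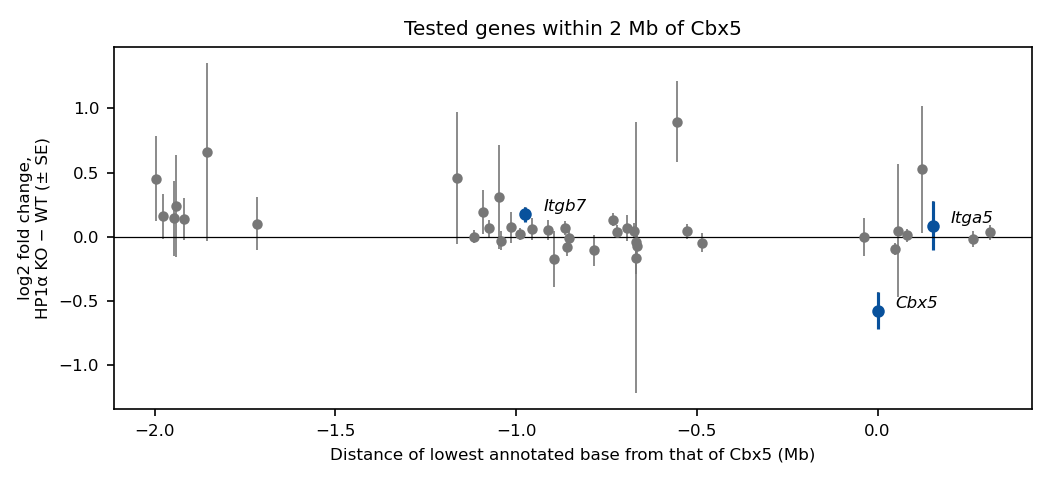
Log2 fold change between HP1α KO and WT, with its SE, of the tested genes within 2 Mb of Cbx5, by distance in Mb. Points are genes; Itgb7, 0.975 Mb from Cbx5, is at 0.18 with a small SE, and Cbx5 itself is at -0.58.

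Promoters are shown for Cd44 (chr2:102641486-102732010, minus strand, GRCm39), the only member called between the WT groups, and for Itgb7. Itgb7 separated HP1α KO from WT samples but was not called there. Promoters are RefSeq sequences of the GRCm38.p6 build, from 250 bases before to 50 after the start of the gene, read 5′ to 3′ on the gene's strand, and 5 of 10 members had one in the table. Capitals mark GGAA, the core of ETS family sites, or TTCC, the same core on the other strand. The sequences below are of chr2:102901616-102901915 and of chr15:102231886-102232185, both on the minus strand.
Cd44: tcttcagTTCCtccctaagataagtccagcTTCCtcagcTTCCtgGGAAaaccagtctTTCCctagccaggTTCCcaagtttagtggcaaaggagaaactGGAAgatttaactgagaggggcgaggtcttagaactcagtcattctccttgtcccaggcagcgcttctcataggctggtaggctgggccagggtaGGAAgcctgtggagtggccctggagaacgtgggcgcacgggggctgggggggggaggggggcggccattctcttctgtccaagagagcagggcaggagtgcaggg
Itgb7: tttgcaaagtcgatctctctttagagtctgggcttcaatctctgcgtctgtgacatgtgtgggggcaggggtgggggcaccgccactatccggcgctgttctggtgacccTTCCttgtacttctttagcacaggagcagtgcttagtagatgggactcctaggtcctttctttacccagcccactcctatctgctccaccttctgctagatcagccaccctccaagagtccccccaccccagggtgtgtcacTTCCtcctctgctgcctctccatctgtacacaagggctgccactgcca
The Cd44 window held 8 such cores and the Itgb7 window 2, while 96% of 32851 promoters held at least 1. Neither held the RUNX core TGTGGT, present in 16.8% of promoters, which of the members was found in Itga4. Neither held TATAAA, found in 13.6%. Cd44 had 6 and Itgb7 5 CpG dinucleotides, near the median of 7 over all promoters, while Itgb1 had 27, Itga1 12 and Itga4 10. These letter matches describe the windows and do not show binding.

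The members showed both positive and negative relations among samples, described here as Pearson correlations of log2 CPM over 16 samples that share libraries and groups. Itgb2 and Selplg were the closest pair (r = 0.82, and 0.75 after group means were removed), followed by Itgb7 and Selplg (0.77 and 0.50) and by Itgb2 and Itgb7 (0.75 and 0.65). Itgal and Itga6 ran most in opposite directions (-0.72 and -0.65), and 25 of 45 pairs were above 0, or 23 of 45 within groups. The negative correlation of Itgb7 and Cd44 (-0.58) fell to -0.08 within groups. Outside the members, the genes with the highest correlation were Add1 (0.95) and Anxa6 (0.95) for Itgb7, Fbxw10 (0.93) and Cd28 (0.93) for Cd44, and Tpst2 (0.93) and Xylt2 (0.92) for Selplg. For Itgb2 they were Il12rb1 (0.90) and Mllt1 (0.88), for Itga4 Gm43071 (0.91) and Usf3 (0.91), and for Itgae St8sia6 (0.89) and Impdh2 (0.88). For Itga6 they were Il6st (0.88) and Ccl9 (0.84), for Itgal Pitpnm2 (0.86) and Gm15429 (0.83), for Itgb1 Syne3 (0.86) and Tlcd3a (0.81), and for Itga1 Gm35065 (0.80) and Gprasp1 (0.76). These genes were picked as the highest among the 15776 genes tested. The samples include the difference between lines, and no value within groups was computed for these genes.

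The rest of the adhesion pathway was followed in 6 lists of genes, and 0 genes of any list were called in either knockout. Among other integrin subunits, Itga7 had the smallest p in both knockouts. Itga7 was at 29.5 to 38.0 CPM in HP1α KO and 22.6 to 32.8 CPM in WT samples, with a log2 fold change of 0.30 (adjusted p = 0.946, edgeR). It was at 24.6 to 34.3 CPM in HP1γ KO and 20.0 to 22.7 CPM in WT samples, without overlap, with a log2 fold change of 0.51 ± 0.103 (SE; adjusted p = 0.0956). In the HP1α knockout, the genes with the smallest p in the other lists were Rasgrp2, the Rap1 activator (0.13 on the log2 scale), Icam4 (0.63), the fucosyltransferase Fut4 (0.94), the protease Mmp9 (0.19) and Cd6 (0.18), each with an adjusted p of 0.946. In the HP1γ knockout they were Rapgef2 (0.21, adjusted p = 0.322), Icam2 (-0.15, adjusted p = 0.406), B4galt1 (0.20, adjusted p = 0.42), the CD44-cleaving protease Mmp14 (-1.04, adjusted p = 0.189) and Thy1 (-0.27, adjusted p = 0.218). There, 5 of 14 other integrin subunits and 6 of 23 other adhesion receptors had an unadjusted p under 0.05 (edgeR), against 11.9% of all genes. So did 3 of 29 genes of integrin activation, 1 of 13 ligands, 0 of 19 of selectins and 1 of 12 CD44 partners. The median log2 fold change was 0.24 for the other integrin subunits and -0.09 for the receptors, against 0.0005 over all genes. These differences were not tested.

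Between the WT groups, 7 of 29 tested genes of integrin activation and tail binding were called, 4 higher and 3 lower in the HP1α line, and the median over the list was -0.01. Of all genes tested in this comparison, 12.8% were called. Slc3a2, the CD98 heavy chain that binds β1 and β3 tails, was at 325.2 to 440.0 CPM in HP1α WT and at 587.2 to 828.5 CPM in HP1γ WT samples, a log2 difference of -0.92 ± 0.125 (SE; adjusted p = 0.00313, edgeR). Rap1b, the GTPase that activates integrins, differed by -0.52 and vinculin (Vcl) by -0.50. Kindlin-3 (Fermt3), which binds β tails in blood cells, was higher by 0.30 and Rasgrp2 by 0.32.

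Of selectins and selectin-ligand synthesis, 5 of 18 were called between the WT groups (12.8% of all genes), St3gal1, a sialyltransferase, higher (0.49) and 4 lower. The largest of these was Chst2, a sulfotransferase of selectin ligands, at 74.4 to 87.1 CPM in HP1α WT and 123.4 to 200.9 CPM in HP1γ WT samples (-1.07 on the log2 scale, adjusted p = 0.00271, edgeR). Golph3 (-0.69), B3gnt3 (-0.59) and B4galt1 (-0.23), all of the Golgi, were the others. Of CD44 partners, ERM proteins and shedding proteases, 2 of 12 were called, ezrin (Ezr), which links CD44 to actin (-0.30), and Srgn, whose glycan chains can bind CD44 (-0.53). Of ligands, 2 of 13 were called, Cdh1, the E-cadherin bound by CD103, lower (-0.96) and Icam2, a ligand of LFA-1, higher (0.28). Of other T cell adhesion receptors, 4 of 23 were called, Mcam (-1.34) and Sdc4 (-0.94) lower and Cd48 (0.36) and Cd226 (0.49) higher. No other integrin subunit of 14 was called. The share called was below that of all genes for the other integrin subunits and above it for the rest of the lists, by few genes each, and these differences were not tested. The medians of these lists were -0.08, -0.11, -0.47, -0.14 and -0.05 in this order, against 0.02 over all genes.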

How the data were processed

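RNA-Seq of 16 samples (4 per group, mapped by the submitters' titles) was analysed. After adapter trimming, the authors used STAR for alignment (GRCm39) and Salmon for quantification, and they deposited estimated counts per gene without normalization (11.6% not whole). The authors also deposited TPM. The treatment labels name a cell transfer and were not used. The study's methods leave out 1 HP1γ RNA-Seq sample under a name that the labels do not carry, so all 16 samples were kept. No column belonged to other samples (0).

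Estimated counts were rounded and tested with R 4.3.3 and edgeR 4.0.16 (TMM, filterByExpr with a minimum count of 10, glmQLFit, glmQLFTest, Benjamini-Hochberg adjustment over all genes tested), with each comparison in a fit of its own 8 samples and the interaction over 16. A gene was called at an adjusted p under 0.05. Confidence intervals are 95%. Counts summed to between 26694045 and 40199637 per sample. CPM follow TMM over 16 samples. TPM served for levels between genes. Coordinates come from a GENCODE annotation of GRCm39, promoters from RefSeq on GRCm38.p6.

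The members and lists were chosen with earlier results of these data known. Named were the members, Cbx5, Cbx3, in each list the genes called (at most 5 per comparison) or the gene with the smallest p, other integrin subunits with at least 5 TPM, called genes near Cbx5, and for each member the 2 most correlated genes. The unadjusted genes near Cbx5, Itga5 and the comparison of the knockout groups were added after values were seen. Alternatives were DESeq2 1.42.0, RLE size factors, no filter, at least 10 counts in every sample, a replicate block, limma 3.58.1 on log2(TPM + 1) and log2(TPM + 0.1), all 16 samples in one fit, windows of 1 and 5 Mb and each sample left out. Scripts were tested on simulated counts. Of the naive T cell markers, 4 were summed, a choice made after values were seen, and 1 is not reported here. The 24 replicate pairs all differed beyond sampling noise (smallest chi-square per gene 9.51). Same-numbered samples deviated together with correlations from 0.081 to 0.271 in the HP1α line and from -0.006 to 0.186 in the HP1γ line. These were weak, and the numbers entered as a block only in an alternative fit.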

Additional observations from a re-analysis of the deposited data

Results flagged for a closer look

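Each member was checked in each group for a sample far from the other 3, by the gap to its neighbour over the range of the group. Of 40 checks, 5 passed, and chance alone flags about 1 in 20. Itgal was low in HP1α KO replicate 3 at 1244 CPM (next sample 1438 CPM) and in HP1γ KO replicate 1 at 1217 CPM (next sample 1419 CPM). Selplg was low in the same HP1α KO replicate 3 at 324.5 CPM (next sample 396.9 CPM). Itga1 was low in HP1γ WT replicate 2 at 9.99 CPM (next sample 13.5 CPM), and Itga6 was high in HP1α WT replicate 4 at 101.4 CPM (next sample 87.7 CPM).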

How the results depend on the processing

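Over all alternatives and omissions of a sample, no member was called in either knockout or in the interaction. The replicate block lowered the adjusted p of Itga6 in the HP1γ knockout from 0.464 to 0.161 (edgeR). The Cd44 difference between WT groups was called in all 8 omissions of a sample (-0.38 to -0.31) and under 7 of 8 other alternatives, the exception being the replicate block (-0.35, adjusted p = 0.0592). Between the WT groups the numbers did not pair the samples. Correlations of their deviations ran from -0.195 to -0.095, and 0 of 8 WT samples correlated best with their own number. Within lines, 4 of 8 samples of the HP1α line and 2 of 8 of the HP1γ line did. Correlations within lines were mostly above 0 but weak, and whether the numbers mark pairs within a line is not settled by this check. Itgb1 between WT groups was called with DESeq2, RLE size factors and the strict filter, which made 2 members lower, and with the replicate block 0 members were.

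Counts of genes, higher then lower, moved as follows. With DESeq2 they were 3 and 5 (HP1α), 182 and 83 (HP1γ), 19 and 59 (interaction) and 1147 higher (WT groups). With no filter, 1 was lower in HP1α, 22 in HP1γ, and the interaction had 2 and 12. At least 10 counts in every sample gave 23 higher in HP1γ. The replicate block gave 111 and 466 between WT groups and 3 higher in the interaction. With limma on log2(TPM + 1), 1 was lower in HP1α, HP1γ had 24 and 4, 250 were higher between WT groups and 1111 between KO groups. With log2(TPM + 0.1), 1 was lower in HP1α, 5 in HP1γ, 258 were higher between WT groups and 1136 between KO groups, and the interaction had 0 and 4. All 16 samples in one fit gave 67 and 29 in HP1γ and 1039 higher between WT groups. The block and both limma fits left 1 member higher in HP1α KO than in HP1γ KO. A 5 Mb window around Cbx5 held 14 called genes between WT groups and 36 between KO groups, as it covers more genes. The cause of the other moves was not tested.

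Leaving out a sample gave 0 to 2 higher and 0 to 1 lower genes in HP1α, 25 to 35 and 5 to 14 in HP1γ, 102 to 877 and 471 to 1308 between WT groups (fewest without HP1α WT replicate 1), 1483 to 2591 and 1867 to 2611 between KO groups, and 1 to 2 and 6 to 10 in the interaction. Members higher between KO groups ranged from 0 to 3.

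Signs of small differences turned in 29 of 480 omissions and 18 of 390 other fits, none of them called. With limma on log2(TPM + 1) and log2(TPM + 0.1), Cd44 turned to 0.031 and 0.032 in HP1α, 0.045 in HP1γ (both) and -0.013 in the interaction (both), Itgal to -0.0046 in the interaction and -0.048 between KO groups, Itga1 to 0.013 between KO groups and Itgb2 to 0.011 between WT groups. Itgb2 was at 0.00056 with no filter, and Itgal between KO groups at -0.0079 with DESeq2 and RLE size factors and at -0.0052 with the strict filter. Over omissions, the HP1α ranges that crossed 0 were -0.041 to 0.036 (Itgal), -0.062 to 0.049 (Itgb1), -0.14 to 0.059 (Itga4), -0.020 to 0.083 (Itga6) and -0.25 to 0.027 (Itgae). In HP1γ they were -0.028 to 0.21 (Itga4) and -0.021 to 0.13 (Itga1), between WT groups -0.061 to 0.058 (Itgb2) and -0.082 to 0.40 (Itgae), between KO groups -0.043 to 0.054 (Itgal), -0.045 to 0.20 (Itga4), -0.16 to 0.036 (Itga1) and -0.13 to 0.037 (Itga6), and in the interaction -0.016 to 0.057 (Cd44). By CPM in place of TPM, the order of members began with Itgal (1), Itga4 (2), Itgb1 (3), Itgb7 (4), Itgb2 (5) and Selplg (6). Depth was ample for all members, and 4 samples per group limit the tests.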
